A study of Mus musculus with 2 samples.

Results

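The genes described here are 10 listed as genes of exit from the division cycle, taken by symbol from 55536 annotated genes: the cyclin-dependent kinase inhibitors Cdkn1a, Cdkn1b, Cdkn2a, Cdkn2b, Cdkn2c and Cdkn2d, the pocket proteins Rb1, Rbl1 and Rbl2, and the transcription factor Meis1. Each symbol matched 1 gene identifier. They were measured by total RNA sequencing, with spike-in RNAs, in heart tissue of male B6CASTF1/J mice aged 14 days. B6CASTF1/J is a cross of C57BL/6J with CAST/EiJ. Both libraries, replicates 1 and 2, belong to this single group, each was made from 300 ng of RNA, and no genotype or treatment was varied. The labels call the libraries biological replicates and number their tissue samples separately, but speak of 3 males, give both libraries 1 donor label and do not state whether animals were pooled, so the spread between them may be in part technical.

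The listed inhibitors fall into a pair of families. The CIP/KIP proteins p21 (Cdkn1a) and p27 (Cdkn1b) bind cyclin-kinase complexes as a whole, whereas the INK4 proteins (Cdkn2a to Cdkn2d) bind the kinases Cdk4 and Cdk6 and keep cyclin D away from them. Blocking these kinases leaves the pocket proteins unphosphorylated, and in that state they hold E2F factors on the promoters of S phase and mitotic genes in a silent form. Mouse heart muscle cells stop dividing soon after birth, and deleting Meis1 in those cells of the mouse prolongs their division.

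The libraries held 39334380 and 46391250 expected counts. All 8 cardiomyocyte markers were detected, with summed levels of 39253 and 37556 TPM, and of 7 skeletal muscle markers 1 was. TPM is an abundance per unit of gene length, scaled to the same total in each library, and detection meant a level of at least 1 TPM in each of the 2 libraries. Genes of red blood cells summed to 27517 and 26555 TPM over 6 of 6 markers. Replicate 2 stood apart in lymphoid genes: 10 T cell markers summed to 13.3 TPM in replicate 1 and 70.6 TPM in replicate 2, and 8 thymus markers to 3.49 and 27.4 TPM. The recombinase gene Rag1 had 4 and 2855 counts, and Rag2 had 0 and 82. In the other direction, 6 of 6 atrial markers were lower in replicate 2 by 1.5-fold or more, with sums of 1636 and 509 TPM. The levels of the 10 genes are therefore given for both libraries, and the level without either library is that of the other one.

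Of the 10 genes, 8 were detected, and the 2 that were not were Cdkn2a and Cdkn2b, neighbours in 1 locus on chromosome 4. Among all protein-coding genes, 51.8% were detected. The median of the 10 genes was 9.05 and 9.15 TPM, close to the median of 9.72 and 9.96 TPM over the protein-coding genes that were detected. With 2 libraries of 1 group no test between conditions exists, and no exact permutation test of so few values could reach 0.05, so levels and ratios are given as descriptions with the SD over the libraries (n = 2). In a tissue of many cell types, fewer cells of a type and less RNA per cell cannot be told apart.

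**Figure D1:**
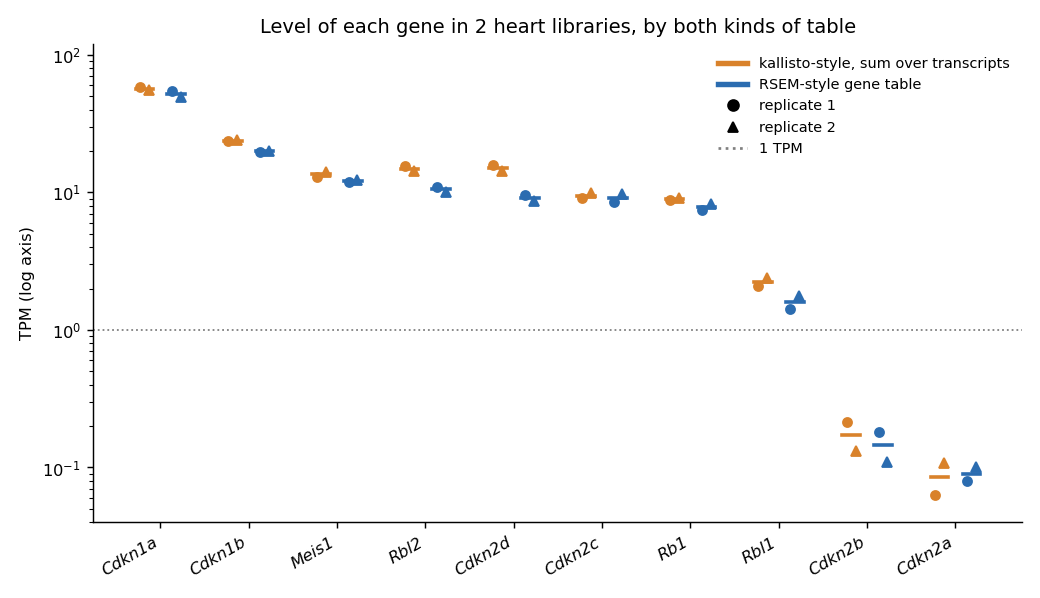
Level of each gene in TPM on a log axis, by the kallisto-style tables (orange, left of each pair) and the RSEM-style gene tables (blue, right); circles are replicate 1, triangles replicate 2, short bars the mean, and the dotted line 1 TPM. Cdkn1a stood highest at 52.3 TPM by the RSEM-style tables, and Cdkn2b and Cdkn2a lay below 0.25 TPM in both kinds of table.

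Cdkn1a (chromosome 17, 29090976 to 29100727, plus strand, mm10), which encodes p21, the inhibitor that p53 induces after DNA damage, had 54.8 TPM in replicate 1 and 49.7 TPM in replicate 2, or 52.3 ± 3.57 TPM (SD, n = 2), from 3026 and 3277 counts. Its level was above that of 94.98% and 94.31% of protein-coding genes. Cdkn1b (chromosome 6, 134920401 to 134925513, plus strand), which encodes p27, an inhibitor held largely through its rate of breakdown, had 19.8 and 20.1 TPM, or 19.9 ± 0.212. Cdkn1a exceeded Cdkn1b by 1.46 and 1.30 on the log2(TPM + 0.1) scale, a 2.61-fold difference of the mean. The size of this difference depended on the measure. The mean log2 ratio was 1.38, against 1.25 in the kallisto-style tables and 0.72 with counts not divided by length. In both libraries Cdkn1a was thus the higher gene of the pair, and the values of the 2 genes did not overlap. Cdkn1a alone held 58.9% and 56.3% of the summed TPM of the 6 listed inhibitors. The pair of Cdkn1a and Cdkn1b held 80.2% and 79.0%, and the 4 INK4 genes 19.76% and 20.96%. The kinase-inhibitor gene Cdkn1c, described below, is not among these 6. It had 17.3 TPM in replicate 1 and 15.3 TPM in replicate 2, and including it would lower each of these shares.

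Cdkn1a has annotated starts at 29090979 and, downstream, at 29093769, and nearly all of its RNA was assigned to transcripts of the downstream one. The 250 bases before each start are shown because the upstream window holds the paired core of a p53 response element (CATG, 6 bases of any kind and CATG again), in capitals; the sequences are those of RefSeq on GRCm38.p6, 5′ to 3′, on the plus strand (chr17:29090729-29090978 and chr17:29093519-29093768).
Cdkn1a upstream start: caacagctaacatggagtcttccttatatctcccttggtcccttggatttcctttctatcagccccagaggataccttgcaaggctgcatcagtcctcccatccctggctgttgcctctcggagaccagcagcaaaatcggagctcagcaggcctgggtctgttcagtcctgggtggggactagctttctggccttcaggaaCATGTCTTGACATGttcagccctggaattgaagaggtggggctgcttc
Cdkn1a downstream start: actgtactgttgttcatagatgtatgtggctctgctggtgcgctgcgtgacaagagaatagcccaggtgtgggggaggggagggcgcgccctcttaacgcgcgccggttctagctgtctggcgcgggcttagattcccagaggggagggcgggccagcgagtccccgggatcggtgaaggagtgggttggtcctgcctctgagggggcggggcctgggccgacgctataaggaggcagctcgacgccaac
The paired core begins 48 bases before the upstream start. The search pattern reads the same on both strands, and 0.49% of 32851 promoter windows of this length contain it. No searched E2F word was in either window.

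The transcripts of the upstream start, Cdkn1a-202 and Cdkn1a-204, had 0 counts and 2 counts in replicate 1 by the RSEM-style table, and 0 for both in replicate 2. The rest lay on Cdkn1a-201 and Cdkn1a-205, which begin at 29093769 and 29093781 and have the same coding exons, and on Cdkn1a-203, which begins farther downstream. The tables divided these reads in opposite ways. Cdkn1a-205 took 88.1% and 81.1% of the gene's TPM in the kallisto-style tables and 1.62% and 3.10% in the RSEM-style tables. Cdkn1a-201 took 7.71% and 11.6% in the kallisto-style tables and 96.8% and 93.9% in the RSEM-style tables. The first exon is 261 bases long in Cdkn1a-205 and 93 bases in Cdkn1a-201, and only 40 of the 31-base words of Cdkn1a-201 occur in no other Cdkn1a transcript, against 212 of Cdkn1a-205. The gene's level hardly depended on this division, at 58.8 and 55.1 TPM in the kallisto-style tables against 54.8 and 49.7 TPM in the RSEM-style tables. On the opposite strand the transcript AC167363.2 shares 273 exonic bases with Cdkn1a and had 2 and 1 counts.

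**Figure D2:**
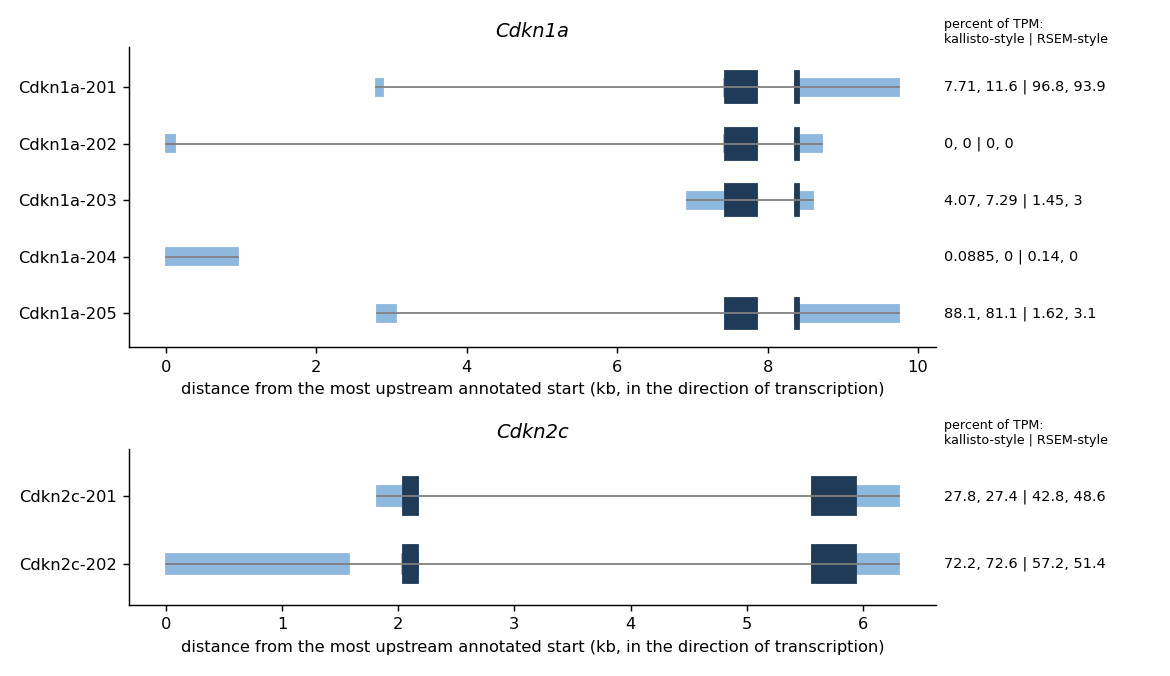
Exons (light), coding exons (dark) and introns (lines) of the transcripts of Cdkn1a (top) and Cdkn2c (bottom) against the distance in kb from the most upstream annotated start; the numbers at the right are percent of the gene's TPM in replicates 1 and 2, first for the kallisto-style and then for the RSEM-style tables. The tables exchange the leading transcript of Cdkn1a between Cdkn1a-205 and Cdkn1a-201, which begin at 29093781 and 29093769 and share their coding exons, and both place Cdkn2c-202 ahead of Cdkn2c-201.

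Cdkn1b was divided in nearly the same way by both tables. Cdkn1b-201 took 72.55% and 72.03% of the TPM in the kallisto-style tables and 74.1% and 72.7% in the RSEM-style tables. Cdkn1b-202, which keeps an intron that lies after the coding sequence, took 27.4% and 28.0% in the kallisto-style tables and 25.9% and 26.2% in the RSEM-style tables. Both encode the same protein, since their coding exons are identical.

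The INK4 genes split into a detected pair and a pair near the limit of counting. Cdkn2c (chromosome 4, 109660876 to 109667189, minus strand), which encodes p18, had 8.55 and 9.66 TPM, or 9.10 ± 0.785 (SD, n = 2). Cdkn2d (chromosome 9, 21288410 to 21291407, minus strand), which encodes the INK4 protein p19, had 9.56 and 8.65 TPM, or 9.10 ± 0.643. These RSEM-style ranges overlapped, and the log2 ratio of Cdkn2c over Cdkn2d was -0.16 in replicate 1 and 0.16 in replicate 2. By these values neither gene was the higher beyond the spread. In the kallisto-style tables Cdkn2d was the higher, at 15.9 and 14.3 TPM against 9.09 and 9.88 TPM. The mean log2 ratio of Cdkn2c over Cdkn2d was -0.66 there.

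Cdkn2b (chromosome 4, 89306299 to 89311039, minus strand), which encodes p15, had 7 and 5 counts, or 0.18 and 0.11 TPM. Cdkn2a (chromosome 4, 89274471 to 89294653, minus strand), which encodes p16Ink4a and, from another start and reading frame, the Mdm2 inhibitor p19Arf, had 2 and 3 counts, or 0.08 and 0.10 TPM. The posterior mean levels deposited beside them were 0.16 and 0.17 TPM for Cdkn2a and 0.20 and 0.12 TPM for Cdkn2b. The credibility bounds deposited with these levels were 0.0759 to 0.339 and 0.0358 to 0.225 TPM for Cdkn2b, and 0.0309 to 0.327 and 0.0448 to 0.325 TPM for Cdkn2a. Their bounds overlapped, so the order of the 2 genes was not settled at this depth. Cdkn2a did not rise above a floor of 3 counts in either library, which corresponds to 0.12 and 0.10 TPM, so no fold against it is given. Cdkn2c stood above Cdkn2b by 4.95 and 5.54, and Cdkn2d above Cdkn2b by 5.11 and 5.38, on the log2(TPM + 0.1) scale. These sizes depended on the pseudocount, since Cdkn2b is near it: the mean for Cdkn2c over Cdkn2b was 5.24, against 5.91 with a pseudocount of 0.01 and 3.14 with 1, and that for Cdkn2d over Cdkn2b was 5.24, against 5.91 and 3.14. With counts not divided by length they were 6.47 and 6.06.

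The few Cdkn2a reads were placed on different transcripts by the tables. The kallisto-style tables gave 1 and 2 counts to Cdkn2a-201, whose start is that of p16Ink4a, and 0 to Cdkn2a-202, whose start is that of p19Arf. The RSEM-style tables gave 0 counts to Cdkn2a-201 and 2 and 3 counts to Cdkn2a-202. Which of the 2 products the reads came from cannot be read from them. Of the 31-base words of Cdkn2a-201 and Cdkn2a-202, 274 and 317 are found in that transcript alone, and the others are shared.

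Cdkn2c also has starts that differ in what precedes the coding sequence. Cdkn2c-202 begins at the upstream start and carries 1580 bases in its first exon, while Cdkn2c-201 begins inside the following intron with a first exon of 355 bases; the coding exons are the same. In cultured mouse muscle cells the short form has been described as replacing the long one during differentiation. The long transcript Cdkn2c-202 took 72.2% and 72.6% of the TPM in the kallisto-style tables and 57.2% and 51.4% in the RSEM-style tables. The short Cdkn2c-201 took 27.8% and 27.4% in the kallisto-style tables and 42.8% and 48.6% in the RSEM-style tables. Reads were thus assigned to both forms by every table and library, with the long one ahead by a margin that depended on the table. Of the 31-base words of Cdkn2c-201, 214 are absent from Cdkn2c-202. The first exon of Cdkn2c-201 begins inside an intron of the long form, and unspliced RNA of the long form would hold these bases too. Whether such RNA contributed to the share of the short form was not tested. The 250 bases before the start of Cdkn2c-201 are shown because they precede the short form (RefSeq, GRCm38.p6, minus strand, chr4:109665373-109665622, 13 of the bases in exons of Cdkn2c-202); they hold none of the searched E2F words, the p53 core pair or the word TTTGAA, so no letter is in capitals.
Cdkn2c short-form start: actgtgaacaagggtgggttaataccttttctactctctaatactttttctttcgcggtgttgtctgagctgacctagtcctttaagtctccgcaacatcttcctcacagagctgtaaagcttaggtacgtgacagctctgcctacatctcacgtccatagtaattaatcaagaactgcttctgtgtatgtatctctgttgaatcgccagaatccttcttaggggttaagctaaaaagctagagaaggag

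Cdkn2d was the gene of the 10 whose level depended most on the table among those detected. It had 15.9 and 14.3 TPM in the kallisto-style tables against 9.56 and 8.65 TPM in the RSEM-style tables, or 1.66 and 1.65 times as much. It was the only member 1.5-fold or more higher in the kallisto-style tables in both libraries, against 10.3% of the detected protein-coding genes. The short transcript Cdkn2d-202, of 691 bases, held 36.1% and 32.4% of its TPM in the kallisto-style tables and 0% in the RSEM-style tables. Cdkn2d-203 led in both, with 62.6% and 67.6% in the kallisto-style tables and 88.8% and 100% in the RSEM-style tables, and Cdkn2d-201 held 11.2% in the RSEM-style table of replicate 1 and 0% in that of replicate 2. By the estimated counts the gene differed less, at 403 and 438 in the kallisto-style tables and 382 and 420 in the RSEM-style tables.

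Among the pocket proteins, Rbl2 and Rb1 were several times higher than Rbl1. Rbl2 (chromosome 8, 91070057 to 91123844, plus strand), which encodes p130, the pocket protein of quiescent cells and of the DREAM repressor complex, had 10.96 and 10.1 TPM, or 10.5 ± 0.608 (SD, n = 2). Rb1 (chromosome 14, 73183673 to 73325822, minus strand), the retinoblastoma gene, had 7.49 and 8.20 TPM, or 7.85 ± 0.502. Rbl1 (chromosome 2, 157145893 to 157204534, minus strand), which encodes p107, the pocket protein of cycling cells, had 1.41 and 1.76 TPM, or 1.58 ± 0.247. The values of the 3 genes did not overlap between the libraries. Rb1 exceeded Rbl1 by 2.33 and 2.16 on the log2(TPM + 0.1) scale, or 4.74-fold, and Rbl2 exceeded Rbl1 by 2.87 and 2.46, or 6.34-fold. Rbl2 over Rb1 was smaller, at 0.54 and 0.30, or 1.34-fold. These sizes also depended on the measure. The mean log2 ratio of Rbl2 over Rb1 was 0.42, against 0.72 in the kallisto-style tables and 0.60 with counts not divided by length. The mean for Rb1 over Rbl1 was 2.24, against 1.95 in the kallisto-style tables and 1.78 with a pseudocount of 1. That for Rbl2 over Rbl1 was 2.66, against 2.67 and 2.16.

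Rbl1 is itself a known target of E2F, and the 250 bases before its start are shown for that reason (RefSeq, GRCm38.p6, minus strand, chr2:157204535-157204784). The word TTTCGCGC, an E2F word, is in capitals and begins 18 bases before the start at 157204534. That is the annotated start of Rbl1-204, and the coding transcript Rbl1-201 starts farther downstream, at 157204512. The word occurs, on either strand, in 0.256% of the 32851 windows. The 4 words searched for E2F were TTTCGCGC, TTTGGCGC, TTTCCCGC and TTTGCCGC, and 1.86% of windows hold at least 1 of them on either strand.
Rbl1 start: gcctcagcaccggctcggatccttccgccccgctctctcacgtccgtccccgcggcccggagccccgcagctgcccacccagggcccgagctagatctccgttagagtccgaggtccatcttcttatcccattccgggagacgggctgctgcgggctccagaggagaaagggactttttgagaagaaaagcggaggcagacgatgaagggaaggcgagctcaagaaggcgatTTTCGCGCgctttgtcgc
Among the 12 windows of 9 members in the RefSeq table, the only other E2F word was TTTCCCGC before the p19Arf start of Cdkn2a. Rb1 had no window. The upstream Cdkn2c window lay wholly in annotated exons, as did 198 of the 250 bases of the Cdkn2d window. The word TTTGAA, the core of the element through which DREAM acts, was present before Cdkn2b and Rbl2, and 16% of all windows hold it. None of these matches overlapped another.

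The Rbl1 transcripts differed between the libraries. The coding transcript Rbl1-201 held 48.1% and 66.9% of the TPM in the kallisto-style tables and 65.6% and 85.9% in the RSEM-style tables, higher in replicate 2 by both. Rbl1-204, an intron-retaining transcript, held 20.5% and 15.98% in the kallisto-style tables and 27.1% and 6.67% in the RSEM-style tables. The short intron-retaining Rbl1-203 held 31.4% and 12.5% in the kallisto-style tables, on 4.43 and 2.36 estimated counts, so that a handful of reads carried a large share of a gene at this level. The count of Rbl1-201 was 135 and 264 in the RSEM-style tables.

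Rb1 and Rbl2 were led by their full-length coding transcripts in every table and library. Rb1-201 held 79.0% and 87.0% of Rb1 in the kallisto-style tables and 80.8% and 83.4% in the RSEM-style tables. Rbl2-201 held 69.0% and 48.6% of Rbl2 in the kallisto-style tables and 89.2% and 78.5% in the RSEM-style tables. In the kallisto-style table of replicate 2 the coding transcript Rbl2-210 took 18.7%, against 2.92% in replicate 1, and the RSEM-style tables gave it 0% and 0.65% in those libraries. Of the 31-base words of Rbl2-201 and Rbl2-210, 15 and 25 are found in no other Rbl2 transcript. The non-coding Rbl2-205 held 11.5% and 4.97% in the kallisto-style tables and 2.21% and 3.89% in the RSEM-style tables, and Rbl2-206 held 7.37% and 11.1% in the kallisto-style tables and 0% in both RSEM-style tables. Non-coding transcripts together held 28.1% and 29.8% of Rbl2 in the kallisto-style tables and 10.2% and 15.2% in the RSEM-style tables. Genes on the opposite strand overlap both: Rcbtb2 (11.6 TPM) shares 488 exonic bases with Rb1, Lpar6 (1.66 TPM) shares 408, and Aktip (16.5 TPM) shares 693 bases with Rbl2. Gm45464, with 6 and 12 counts, shares 892 exonic bases with Rbl2. No source used here states whether the authors' counting used the strand, so reads of these shared bases are uncertain.

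Meis1 (chromosome 11, 18879817 to 19018985, minus strand), a homeodomain factor reported in mouse heart to activate inhibitor genes including Cdkn1a, had 11.8 and 12.3 TPM, or 12.1 ± 0.368 (SD, n = 2). It ranked after Cdkn1a and Cdkn1b, and its range did not overlap that of Rbl2 below it. By the RSEM-style tables, the transcripts of Meis1 annotated as protein-coding summed to 4.64 and 3.93 TPM. Transcripts of other types held 41.2% and 53.9% in the kallisto-style tables and 60.8% and 68.2% in the RSEM-style tables. Those without any coding sequence held 25.8% and 35.2% in the kallisto-style tables and 50.2% and 54.9% in the RSEM-style tables. With protein-coding transcripts alone, Meis1 ranked 7 of the 10.

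The leading transcript of Meis1 also changed with the table. Meis1-201, which encodes the protein, held 53.7% and 41.4% in the kallisto-style tables and 34.3% and 25.8% in the RSEM-style tables. Meis1-203, annotated as a processed transcript without a coding sequence, held 18.98% and 29.5% in the kallisto-style tables and 43.5% and 49.4% in the RSEM-style tables. Meis1-207, annotated as a target of nonsense-mediated decay, held 15.4% and 18.8% in the kallisto-style tables and 10.6% and 13.2% in the RSEM-style tables. Only 27 of the 31-base words of Meis1-203 are in no other Meis1 transcript, and Meis1-201 has 0 such words. The same-strand gene Gm37818 shares 1029 exonic bases with Meis1 and had 19.03 and 18.2 counts. Gm16140, on the opposite strand, shares 896 exonic bases with Meis1 and had 2 and 1 counts. Meis1 was the only detected member whose leading RSEM-style transcript was not protein-coding in both libraries, against 5.68% of detected protein-coding genes with 2 or more transcripts.

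Over the 8 detected members, 6 had the same leading transcript in both tables and both libraries, and 2, Cdkn1a and Meis1, had another one in each table. Among all such genes, 32.2% did not have the same leading transcript throughout, and in 17.8% the tables differed in both libraries. The 2 of 8 members are close to these shares.

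**Figure D3:**
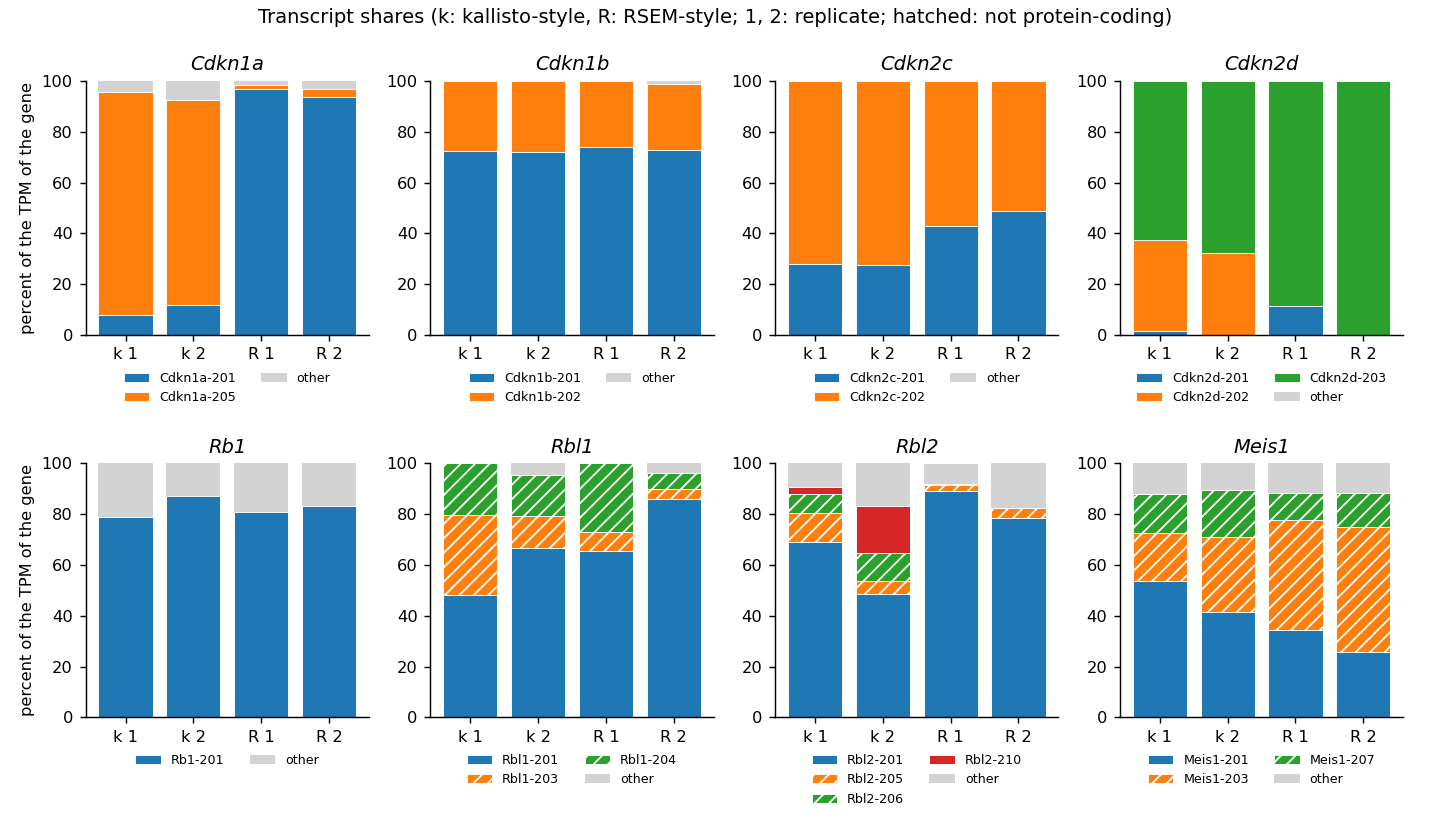
Percent of each gene's TPM in its transcripts, for kallisto-style (k) and RSEM-style (R) tables of replicates 1 and 2; transcripts under 10% in every column are joined in grey, and hatching marks named transcripts that are not protein-coding. Cdkn1a and Meis1 have another leading transcript in each kind of table, with Meis1-203 at 43.5% and 49.4% in the RSEM-style columns.

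The order of the 10 genes by mean RSEM-style TPM was Cdkn1a, Cdkn1b, Meis1, Rbl2, Cdkn2d and Cdkn2c together, Rb1, Rbl1, Cdkn2b and Cdkn2a. Of the neighbours in this order, Cdkn2d and Cdkn2c overlapped between the libraries and Cdkn2b and Cdkn2a could not be ordered at their counts. In the kallisto-style tables Cdkn2d ranked 3, Rbl2 4 and Meis1 5.

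Among the 8 members with 10 counts or more in each library, 0 changed by 1.5-fold or more, while 8.36% of 15950 genes did (5.29% higher and 3.07% lower in replicate 2), and a share of 0 among 8 is near that background. The ratios were taken from TMM-scaled counts, with exact Clopper-Pearson intervals (95%) that cover counting error only, and they compare these libraries, not conditions. The counting interval excluded equal levels in 4 of the 8, against 30.7% of all genes. These were Rbl1 (log2 ratio of replicate 2 over replicate 1 of 0.48, interval 0.19 to 0.76), Rb1 (0.15, 0.02 to 0.28), Cdkn1a (-0.17, -0.24 to -0.09) and Rbl2 (-0.21, -0.31 to -0.10). Rbl1 differed most, at 1.39-fold with 167 and 282 counts. For Cdkn1b, Meis1, Cdkn2c and Cdkn2d the interval included equal levels, with estimates from -0.14 to 0.09.

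**Figure D4:**
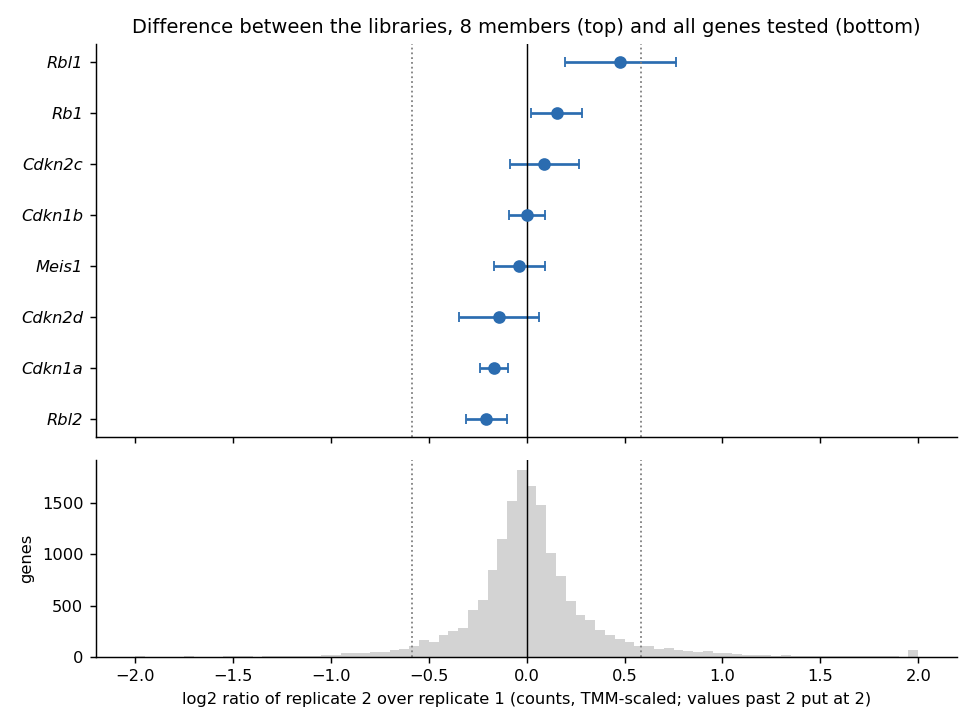
Log2 ratio of replicate 2 over replicate 1 from TMM-scaled counts: 8 members with their 95% counting intervals (top) and the number of genes per bin over 15950 genes (bottom); dotted lines mark 1.5-fold. Rbl1 lies farthest to the right at 0.48, and no member passes a dotted line.

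Several genes of S phase and mitosis were, like Rbl1, higher in replicate 2. The median log2 ratio was 0.46 over 15 S phase genes and 0.45 over 15 genes of G2 and M phase, against a median of -0.00025 over all 15950 genes. Of the 15 S phase genes 4 were 1.5-fold or more higher and 0 lower, against 5.29% and 3.07% of all 15950 genes. The 4 were the replication licensing genes Mcm5 (0.91), Mcm6 (0.74) and Cdc6 (1.71) and the helicase subunit gene Gins2 (0.98). Of the 15 G2 and M phase genes 3 were higher by that fold and 0 lower. The 3 were the topoisomerase Top2a (0.84), the kinase Aurkb (0.67) and the spindle motor Kif11 (0.64). The T cell and thymus markers given above are also higher in this library, and their part in the Rbl1 ratio was not tested.

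The other genes of the pathway were described from lists by how many were detected and by their levels. Further kinase-inhibitor genes were both detected: Cdkn1c, the imprinted gene for p57, at 16.3 ± 1.38 TPM, and the phosphatase Cdkn3 at 1.69 ± 0.382 TPM, which was 1.5-fold higher in replicate 2 (log2 ratio 0.59, counting interval -0.11 to 1.30, which includes equal levels). The partners through which Rbl1 and Rbl2 repress, the MuvB core with its E2F and DP factors and the kinase Dyrk1a, were detected 10 of 10, with a median of 7.5 and 8.45 TPM. They were led by the histone-binding Rbbp4 (40.9 ± 2.91), the DP factors Tfdp2 (37.9 ± 7.03) and Tfdp1 (17.8 ± 1.17), and Dyrk1a (29.9 ± 2.47), which phosphorylates Lin52 to assemble the complex.

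Of 8 E2F factors 7 were detected, and the repressor E2f6 was the highest at 24.1 ± 1.14 TPM, followed by E2f4, the main partner of Rbl2, at 9.46 ± 0.997. The activators E2f2 and E2f3 stood at 4.61 ± 0.481 and 3.71 ± 0.148 TPM. The median of the list was 2.54 and 2.69 TPM. Of the kinases and cyclins that the inhibitors act on, 7 of 8 were detected. Cyclin D2 (Ccnd2) had 74.4 ± 2.81 TPM, Ccnd3 45.2 ± 9.35, the kinase Cdk4 42.1 ± 5.93 and Ccnd1 22.0 ± 3.01. The cyclin E gene Ccne1, which acts at the entry to S phase, had 0.58 and 0.77 TPM.

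Of the genes that break down p27, 4 of 5 were detected. The general ligase subunits Skp1a (91.5 ± 1.26 TPM), Rbx1 (52.2 ± 1.38) and Cul1 (26.7 ± 1.53) were high, and the cofactor Cks1b stood at 5.13 ± 1.07. Skp2, the subunit that recognises p27, had 0.52 and 0.94 TPM, with a log2 ratio of 0.65 (interval 0.16 to 1.16). The p53 list, which includes regulators and targets of the factor that induces Cdkn1a, was detected in 13 of 14, with a median of 9.69 and 11.1 TPM. Its highest genes were Ccng1 (125 ± 8.28 TPM), Sesn1 (50.02 ± 5.42), the p53 ligase Mdm2 (21.1 ± 0.629) and Btg2 (17.2 ± 3.32). The stress cytokine Gdf15 was at 0.27 and 0.64 TPM, from 12 and 30 counts.

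Of Meis1's relatives and partners 7 of 9 were detected, among them Pbx2 (9.90 ± 2.33 TPM), Meis2 (8.54 ± 0.544) and Pknox1 (5.19 ± 1.36). Hoxb13, described as a partner of Meis1 in mouse heart muscle, had 0 counts in both libraries, which allows levels of up to 0.0465 and 0.0388 TPM at a floor of 3 counts. Pbx4 had 3 and 0 counts.

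The Polycomb genes, whose products silence the locus of Cdkn2a and Cdkn2b in many cell types, were detected 9 of 9. Their median was 8.09 and 9.85 TPM, and the highest were Bmi1 (25.8 ± 1.24), Suz12 (13.2 ± 1.17), Eed (10.98 ± 2.63) and Ezh1 (10.4 ± 0.778).

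S phase and G2 and M phase genes were detected 14 of 15 each, with medians of 4.23 and 6.07 TPM and of 3.74 and 4.08 TPM. The highest of them were Pcna (20.9 ± 3.92), Top2a (11.2 ± 4.00), Ung (10.2 ± 1.16) and Slbp (8.00 ± 1.58). Cdc6 was at 0.27 and 0.90 TPM. In each library the median of the 10 cell cycle exit genes was above the medians of both lists. It was below the medians of the G1 cyclin and kinase list (15.0 and 17.4 TPM) in each library. The same held against the p27 turnover list (25.6 and 27.8 TPM) and the p53 list (9.69 and 11.1 TPM). The median over all 22028 protein-coding genes was 1.42 and 1.53 TPM, of which 51.8% were detected.

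**Figure D5:**
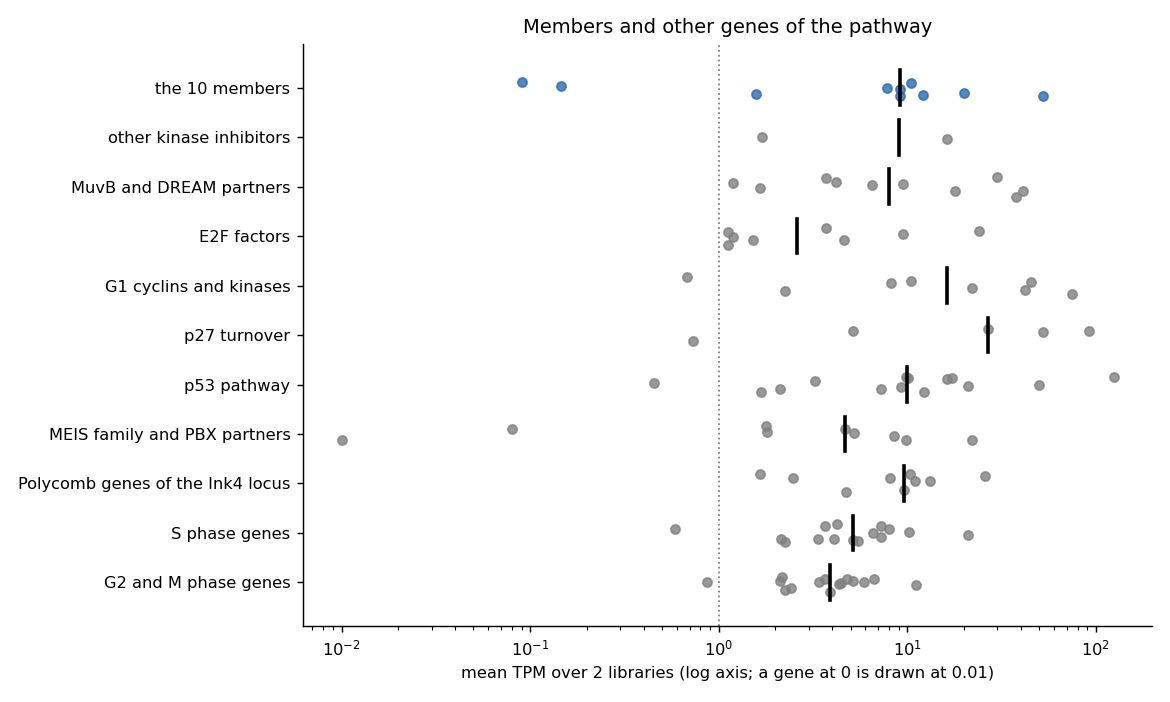
Mean TPM over the 2 libraries of the 10 members (blue) and of the other genes of each list (grey) on a log axis; black bars are medians and the dotted line is 1 TPM. The member median is at 9.10 TPM, and Hoxb13, with 0 counts, is drawn at 0.01.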

How the data were processed

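Heart RNA of 2 libraries of 1 group was measured by total RNA sequencing. Per the file headers, the authors deposited gene and transcript tables with the columns of RSEM, holding expected counts, TPM and the percent of a gene's TPM in each transcript, and transcript tables with the columns of kallisto, holding estimated counts and TPM. The deposited credibility bounds and effective lengths come from the RSEM-style gene tables. The authors' readme names mm10 and annotation M21; no source used here gives tool versions. Coordinates, gene types and exons came from GENCODE M21, promoters from RefSeq.

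Levels are RSEM-style gene TPM over all identifiers of a table, mitochondrial and short RNAs included. Kallisto-style values were summed per gene. Symbols in the kallisto-style tables chose the members, joined by gene identifier. Expected counts were rounded and scaled with the TMM factors of edgeR 4.0.16; DESeq2 1.42.0 size factors were an alternative. Genes with 10 counts or more in each library were compared. Library scaling was tested on simulated data. Depth was 39334380 and 46391250 expected counts, of which spike-ins took 0.517% and 0.531%; intervals and floors cover counting error only. Spike-in and numbered identifiers (26248, with 0.87 and 2.84 counts) were left out of library sizes.

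Named from the lists were the 4 highest genes, those under 1 TPM and those that differed by 1.5-fold. A gene that this rule names is not reported here. The members and lists were chosen with earlier results of these data known. Likeness of pattern was not ranked, since 2 libraries of 1 group give no pattern.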

Additional observations from a re-analysis of the deposited data

How the results depend on the processing

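The number of members detected was 8 at 0.5 TPM, in the kallisto-style tables and in either library alone. Of the 10 members, 7 had 1 leading transcript common to both tables, also in either library alone. This count includes Cdkn2b, which has 1 annotated transcript and so could not differ. The number of members at 1.5-fold or more between the libraries was 0 under library totals, DESeq2 size factors, spike-in totals, kallisto-style counts and a 2-fold limit, and 1 with no filter on low counts, Cdkn2b at 7 and 5 counts, where the added gene follows from the dropped filter. The log2 ratio of replicate 2 over replicate 1 changed sign for Cdkn1b with kallisto-style counts (-0.020) and for Meis1 with library totals (0.0051), both near 0. Cdkn2c over Cdkn2d was 0.41 with counts not divided by length and -0.66 in the kallisto-style tables. In the RSEM-style tables it ranged from -0.16 to 0.16 over the libraries. The kallisto-style tables moved the level of 7 of 10 genes by more than the spread between the libraries, and TPM rescaled over nuclear protein-coding genes moved all 10, by its construction. No paired analysis was possible because both libraries form a single group. Depth limits Cdkn2a and Cdkn2b, and transcript shares of Rbl1.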
